A study of Mus musculus with 6 samples.

Results

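Solute carrier genes that lie near sites of the transcription factor NRF2 were described in mouse embryonic fibroblasts (MEFs). A gene was included when its symbol began with Slc and a digit and a peak assigned to it lay within 50 kb of its transcription start site (TSS) in any of 4 peak lists. That rule gave 130 genes of the 6513 that were named by a peak within 50 kb, and of the 8030 named at any distance. Slc7a11, Slc3a2, Slc48a1, Slc40a1, Slc11a1 and Slc11a2 were left out. The 130 genes carried 236 peaks, which formed 211 separate sites after overlapping windows were merged. The genes were chosen by the presence of a peak, so every count below describes them and none is a test. For comparison, 25.6% of all protein-coding genes had such a peak in any list.

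The cells were of the 129S6/SvEvTac strain and were either wild type (WT) or GCN2-/- (KO), lacking the kinase that senses uncharged tRNA when amino acids run short. For 24 h each genotype grew either in complete DMEM or in leucine-free DMEM, then chromatin was precipitated with an antibody to NRF2 and sequenced (ChIP-seq). There was 1 library for each of the 4 conditions, and both lists of a genotype were called against the input of that genotype from complete medium. The labels do not say whether the cells of a genotype came from several embryos or from 1 line, and the lists do not measure fibroblast markers or the loss of GCN2. With 1 library for each condition, differences between lists cannot be set against replicate error, and sequencing depth is unknown.

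NRF2 is a basic leucine zipper protein that pairs with small Maf proteins on antioxidant response elements and is held down by KEAP1 until electrophiles or oxidants release it. Solute carriers are membrane proteins that move amino acids, sugars, ions, metals, nucleotides, vitamins and drugs across the plasma membrane or the membranes of organelles. They are numbered by family, the number after Slc, and a family usually shares a type of substrate. The cystine carrier and the heme carrier, both left out here, are well known for their link to NRF2.

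The WT lists held 2336 peaks (complete medium) and 5980 (no leucine), and the KO lists 3141 and 4600. Values given as 4 numbers in a row follow this order. Peaks are ranked by the authors' score within each list, rank 1 being the highest, and equal scores share the best rank. Ranks in lists of different length do not measure a change in binding, and absence from a list means only that no peak passed the authors' threshold. A position in percent is the rank, averaged over equal scores, divided by the length of the list. Every gene name is that of the nearest TSS as the authors assigned it, which need not be the gene a site acts on. Coordinates are mm10.

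One of the sites shared between lists lay at a second start of Slc20a1, the gene of the sodium-phosphate cotransporter PiT-1. The RefSeq table holds 2 starts for Slc20a1, and windows from the WT leucine-free list and both KO lists were centred 127 to 152 bp upstream of the one inside the gene. The 250 bases before that start (GRCm38.p6, the assembly of mm10, plus strand, chr2:129206846-129207095) are shown because all 3 windows overlap them. Capitals mark the match to the antioxidant response element core, TGACNNNGC, which reads TGACGCAGC on the reverse strand.
Slc20a1 internal start: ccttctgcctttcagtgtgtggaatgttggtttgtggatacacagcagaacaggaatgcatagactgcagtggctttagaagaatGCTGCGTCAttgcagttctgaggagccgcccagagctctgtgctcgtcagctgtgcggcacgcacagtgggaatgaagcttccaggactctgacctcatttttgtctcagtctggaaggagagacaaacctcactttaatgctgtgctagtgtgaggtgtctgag
The match spans 129206931 to 129206939 on chromosome 2, inside the window of 3 of 3 peaks, 9 to 34 bp from their centres. Among all 32851 RefSeq promoter windows (250 bases before to 50 after a start), 12.4% held this core on either strand, so the match is a description and not a mapped site. The AP-1 motif TGANTCA, which can overlap the core, was found in 7.81% of all windows and not in this one.

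A site named for Slc25a33, a mitochondrial pyrimidine nucleotide carrier, lay over the start of Gm13073, a long non-coding RNA gene. The part of the Gm13073 promoter window under these peaks (GRCm38.p6, minus strand, chr4:149780888-149781056) is shown because all 4 lists held a peak there.
Gm13073 start: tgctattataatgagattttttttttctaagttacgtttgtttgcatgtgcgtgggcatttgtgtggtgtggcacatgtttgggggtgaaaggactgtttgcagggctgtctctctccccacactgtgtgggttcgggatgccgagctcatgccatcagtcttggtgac
Neither motif was found in the whole promoter window of Gm13073, and the other part of the peaks lies outside the table's sequence. Of the 130 genes, 103 had a promoter sequence in the table. Their 131 windows held the core in 14.5% and the AP-1 motif in 8.40%, beside 12.4% and 7.81% of all windows.

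The 5 sites found in every list were those near Slc16a9, Slc44a3, Slc25a33, Slc22a12 and Slc2a1. Their peak centres moved by at most 41 bp between lists. In all, 12 of the 211 sites (5.69%) were in 2 or more lists, beside 7.06% of all 9395 sites within 50 kb of a TSS. The share for solute carriers was thus close to that of all genes.

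Slc16a9, a member of the monocarboxylate transporter family, had the highest-ranked site of the group. Its intergenic site on chromosome 10, at 70287755 to 70288055 in WT in complete medium, lay 42629 bp downstream of the TSS. It ranked 14 and 29 in the WT lists and 44 and 10 in the KO lists. These ranks are the best of any gene of the group in all 4 lists, and all fall in the upper 1.4% of their list. In the RefSeq gene table the site lay 1953 bp past the end of Slc16a9. Its centre was at closest 1844 bp from the start of the non-coding gene Gm40687, and the nearest other coding gene, Mrln, was 68193 bp away. Slc16a9 also had an intron peak in WT in complete medium (rank 2027) and a promoter peak in WT without leucine (rank 2557).

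The Slc44a3 site ranked 71 and 70 in the WT lists and 214 and 85 in the KO lists. Slc44a3 encodes a choline transporter-like protein. The site was intergenic, 44857 bp upstream of the TSS on chromosome 3 (121577051 to 121577351 in WT in complete medium). The start of the non-coding gene Gm33547 was 1029 bp away at closest, while the nearest other coding gene, 4930432M17Rik, was 93560 bp away.

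The Slc25a33 site ranked 115 and 503 in the WT lists and 241 and 215 in the KO lists. It lay 6623 bp upstream of Slc25a33 in WT in complete medium (chromosome 4, 149780740 to 149781040) and its centres were 31 to 47 bp from the Gm13073 start shown above. All 4 ranks fell in the upper 8.4% of their lists.

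Slc2a1 encodes GLUT1, the glucose transporter that most cells use for basal uptake. Its site lay in intron 2 of 9, 12758 bp past the TSS (chromosome 4, 119121353 to 119121653 in WT in complete medium). It ranked 420 and 82 in the WT lists and 485 and 1222 in the KO lists. Its position was 18.1%, 1.4%, 16.8% and 28.8% of list length, highest in WT without leucine. These positions within single lists have no replicate, and the lists differ in length.

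Slc22a12 encodes URAT1, a urate transporter. Its intergenic site 3207 bp upstream of the TSS (chromosome 19, 6546127 to 6546427 in WT in complete medium) had the widest spread of position. It ranked 1876 and 463 in the WT lists and 102 and 168 in the KO lists. The site was in the lower-scoring part of the WT list in complete medium, at 82.8% of its length. It was at 8.0% in WT without leucine and in the upper 3.7% of both KO lists. As for Slc2a1, these positions have no replicate, and the lists differ in length.

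**Figure D1:**
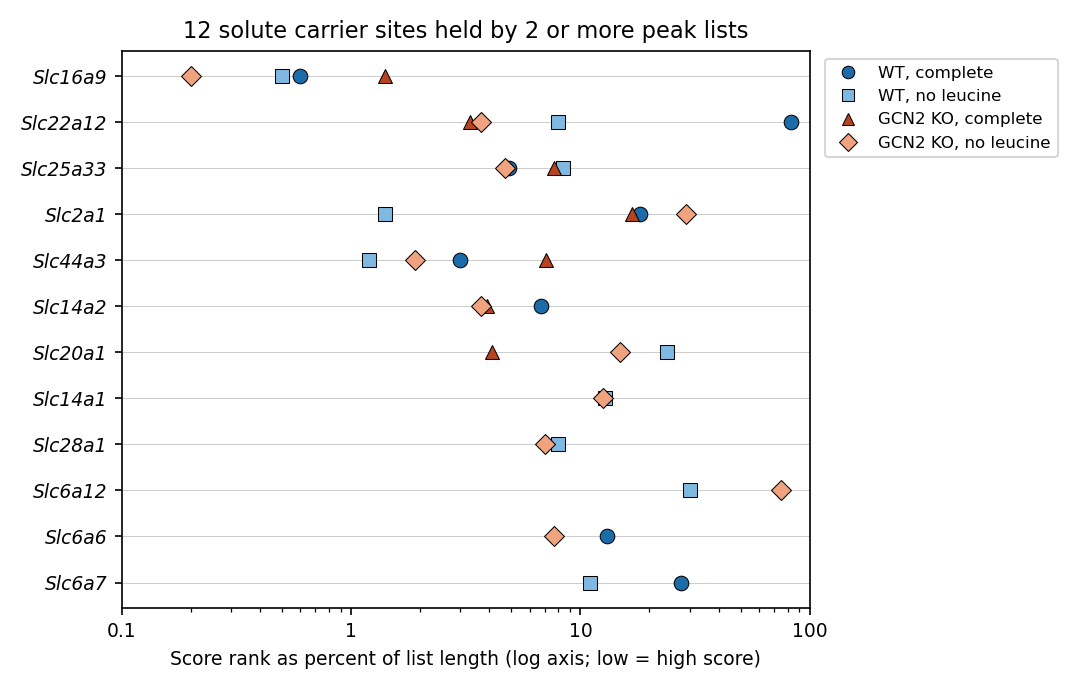
Score rank of each of the 12 sites held by 2 or more lists, as a percent of the length of its list on a log axis, with 1 point per list that held a peak. The Slc16a9 points sit between 0.2% and 1.4%, and the Slc22a12 points run from 3.3% to 82.8%.

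The 2 sites in 3 lists were those of Slc20a1 and Slc14a2. The Slc20a1 peaks ranked 1403 in the WT leucine-free list and 124 and 670 in the KO lists, and WT in complete medium had none. They lay in intron 6 of 10, 8171 bp past the first TSS in WT without leucine. Slc14a2 encodes a urea transporter known from the kidney. Its intergenic site, 4438 bp upstream of the TSS in WT in complete medium, ranked 154 there and 122 and 170 in the KO lists. It was missing from WT without leucine, the longest list.

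The other 5 shared sites were in 2 lists each. Both lists without leucine held a site 26498 bp upstream of Slc28a1, a sodium-coupled nucleoside transporter, with ranks 463 in WT and 315 in KO. That window lay in intron 5 of 13 of Alpk3, a kinase gene, and not in Slc28a1. Both lists without leucine also held a site 8927 bp upstream of Slc14a1, the urea transporter of red cells, with ranks 764 in WT and 567 in KO. It is annotated to intron 1 of 8 of Slc14a1 itself, and the KO list held a further peak at this merged site, with rank 4029. The third such site was in Slc6a12, the betaine and GABA transporter gene, with ranks 1524 and 3090.

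Slc6a6 encodes the taurine transporter. A site in its intron 1 of 14 (chromosome 6, 91689229 to 91689529 in WT in complete medium) ranked 298 (WT, complete medium) and 348 (KO, no leucine). Slc6a6 had a different peak in WT without leucine, 43095 bp past the TSS with rank 3470, and none in KO in complete medium. The Slc6a7 site, named for a proline transporter gene, was in both WT lists alone with ranks 634 and 654. It lay in an intron of the homeobox gene Cdx1.

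Peaks at the 12 shared sites stood high in their lists. Of these 37 peaks, 34 were in the higher-scoring 50% of their list and their median rank was at 7.7% of list length. Of the 199 peaks at sites of 1 list, 74 were in the higher-scoring 50%, with a median at 59.6%. Sites of other genes were not split in this way, so whether the contrast is particular to solute carriers was not tested. The highest position at a site of 1 list was 9.9%, at a peak named for Slc46a2 in KO without leucine (rank 446). It lay in intron 8 of 8 of Snx30, 19715 bp past the Slc46a2 TSS. Next came 10.1% at Slc45a1 in KO in complete medium (rank 311). Slc46a2 belongs to the family of the folate transporter. A single shared-site peak, 1 of 37, was annotated to a repeat (a LINE near Slc14a1).

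**Figure D2:**
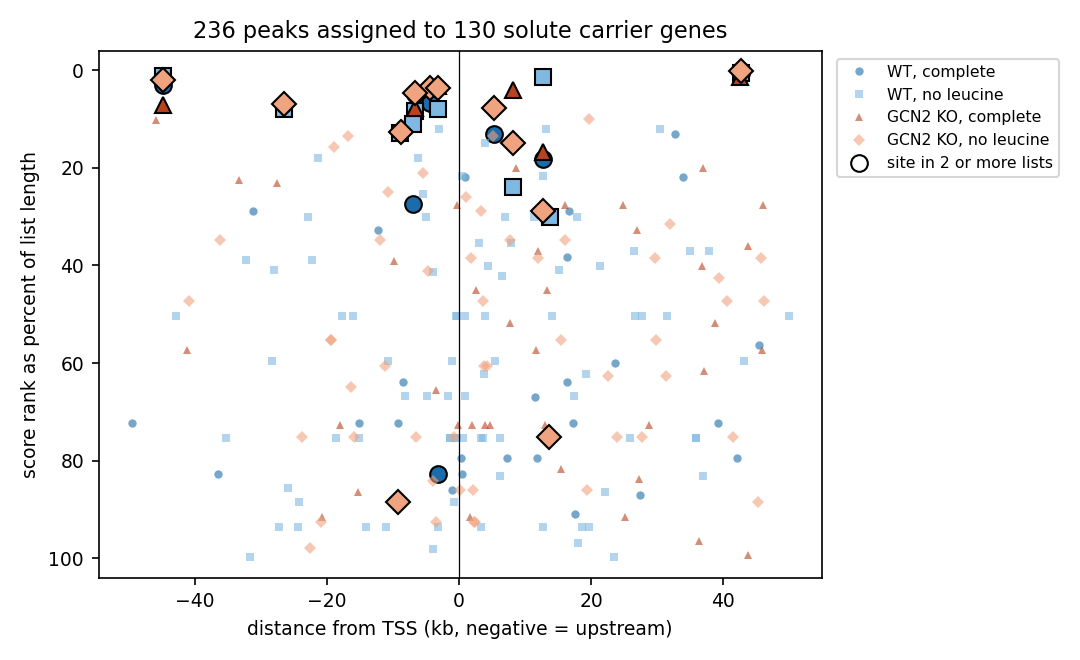
Distance from the TSS in kb against score rank as a percent of list length for all 236 peaks, with rank 0% at the top and 1 symbol per list. Large outlined symbols are the 37 peaks of shared sites, of which 34 lie in the upper 50% of the axis. The other 199 spread over all distances and over positions from 9.9% to 99.8%.

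A gene can be named in several lists through different sites, and this was the usual case. Of the 130 genes, 91 (70.0%) were in 1 list, 20 in 2, 12 in 3 and 7 in all 4. The 39 genes in 2 or more lists made 30.0%, beside 28.2% of all 6513 genes. Of those 39, 12 had a site that overlapped between lists (30.8%, beside 34.1% of all 1838 genes in 2 or more lists). The other 27 had separate sites, with a median smallest gap of 10126 bp between centres of different lists. The smallest gap was 336 bp, in intron 5 of 8 of Slc35b1 in both KO lists, in adjacent windows annotated to SINE repeats.

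Slc29a4, the gene of the plasma membrane monoamine transporter, had the most peaks and was named in every list with no shared site. Its 10 peaks lay at 10 sites between 35242 bp upstream and 49944 bp downstream of the TSS. WT without leucine held 5 of them, including a promoter peak 363 bp upstream, and KO without leucine held 3. Ranks ran from 581 of 3141 in KO in complete medium to 4126 of 5980 in WT without leucine. The Slc29a4 promoter window of RefSeq held a core match, TGACTCCGC, but 311 bp from the centre of that peak and outside its window.

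Slc45a1, a sugar transporter gene expressed in brain, had 7 peaks at 7 sites, 5 of them in WT without leucine. Slc12a7, the potassium-chloride cotransporter KCC4, had 5 sites in 3 lists. Slc2a9, a urate transporter, had 3 sites in WT without leucine and 2 others in KO without leucine. Slc45a4 and Slc38a8 had 4 sites each. Together with Slc6a12, Slc22a12 and Slc14a1, 9 genes had 4 or more sites, 48 sites in all, of which 3 were shared between lists. Of all sites within 50 kb of a TSS 7.06% were shared. The 54 peaks of the 9 genes included 24 in the higher-scoring 50% of a list. Of all peaks within 50 kb, 42.3% to 49.6% were in the higher-scoring 50% of their list. The 9 genes were not tested against these shares.

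**Figure D3:**
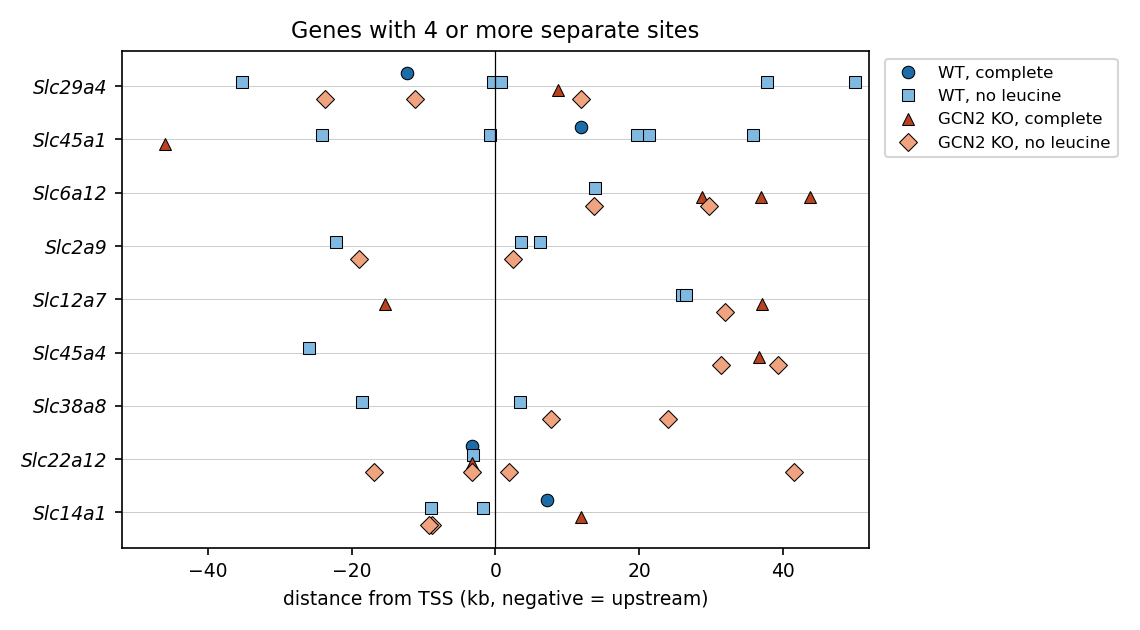
Distance from the TSS in kb of each peak of the 9 genes with 4 or more separate sites, 1 symbol per list. The Slc29a4 peaks of the 4 lists fall at 10 different places, while the Slc22a12 symbols of the 4 lists stack at 1 place just upstream of the TSS.

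In 5 further genes named in 3 lists no site was shared. Slc10a4 had peaks ranked 5162 (WT, no leucine) and 792 (KO, complete medium), both in introns of its neighbour Fryl, and an intergenic one ranked 2943 (KO, no leucine). Slc17a9, the vesicular nucleotide transporter, ranked 5961 of 5980 in WT without leucine and 2017 and 2346 in the KO lists. Slc35b1, which carries ATP into the endoplasmic reticulum, ranked 1419 in WT in complete medium and 2096 and 2004 in the KO lists. The nearest of these peaks in different lists were the Slc35b1 pair in KO, 336 bp apart at their centres.

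Slc35f3 ranked 1524 in WT without leucine and 1509 and 2004 in the KO lists. Slc45a4, whose KO peaks all lay within the neighbouring gene Dennd3, ranked 5070 in the WT leucine-free list and 1235 and, at best, 1927 in the KO lists. Slc45a1 had its best peak in KO in complete medium (rank 311), 45920 bp upstream.

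Within 1 kb of the TSS that the authors assigned, the lists had no solute carrier site in common. Of all sites within 50 kb of a TSS 7.06% were in 2 or more lists, and the share within 1 kb was not counted. The Slc20a1 site described above lies near another start, 8171 bp from the assigned one. Of 15 genes with a peak within 1 kb of the assigned TSS, none had it in 2 lists. Between 42.3% and 49.6% of all peaks within 50 kb were in the higher-scoring 50% of their list, without a count for 1 kb. The 16 peaks of the 15 genes included 3 in the higher-scoring 50% of a list, at Slc25a32, Slc25a23 and Slc17a2. Their positions were 21.7%, 21.9% and 27.6%. In WT without leucine the peaks within 1 kb lay at Slc25a32, the mitochondrial folate carrier (449 bp, rank 1281, at the promoter of its neighbour Dcaf13), Slc13a4, a sulfate transporter (-249 bp, 2557), Slc16a9 (-475 bp, 2557) and Slc35c1, the GDP-fucose transporter (954 bp, exon 2 of 3, 2557). Lower in that list were Slc22a4, a transporter of ergothioneine and carnitine (-601 bp, 4126), Slc2a7 (611 bp, exon 2 of 12, 4126), Slc29a4 (-363 and 825 bp, 4126 and 3854) and Slc45a1 (-709 bp, 5187). WT in complete medium had Slc25a23, a mitochondrial ATP-magnesium carrier (845 bp, rank 470), Slc39a2, a zinc importer (280 bp, exon 1 of 4, 1837), and Slc25a46, of the mitochondrial outer membrane (497 bp, 1876).

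KO in complete medium had promoter peaks at Slc17a2 (-276 bp, rank 792) and at Slc2a13, the proton-coupled inositol transporter (-142 bp, rank 2096). KO without leucine had peaks at both subunits of the organic solute transporter for bile acids. Slc51a had one in the 5' UTR of exon 1 of 9 (121 bp, rank 3925) and Slc51b one in the promoter (-754 bp, rank 3090 of 4600). Both ranks lie in the lower-scoring part of that list. An AP-1 match at the Slc17a2 start lay 244 bp from the peak centre and outside its window.

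By annotation, 125 of the 236 peaks (53.0%, exact 95% interval 46.4 to 59.5) were in introns and 71 (30.1%, 24.3 to 36.4) were intergenic. Of all 10579 peaks within 50 kb of a TSS, 47.9% were in introns and 36.5% intergenic, the second value just above the interval. Exons held 19 peaks (8.05%, against 6.50%), promoters 9 (3.81%, against 3.42%) and transcript ends 8 (3.39%, against 2.42%). Repeat elements accounted for 39 (16.5%, 12 to 21.9), below the 23.9% of all peaks within 50 kb. These intervals cover counting error only and treat peaks as independent, although several share a gene or a site.

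Outside promoters and the 1 kb zone, peaks in an exon of their own gene lay in Slc12a7 (exon 10 of 24), Slc14a1 (5 of 9), Slc14a2 (6 of 8), Slc22a7 (2 of 10), Slc25a12 (3 of 18), Slc29a4 (5 of 11), Slc34a1 (7 of 13), Slc39a5 (10 of 11 and 4 of 11), Slc4a5 (13 of 25) and Slc6a12. Transcript-end peaks of the same kind were those of Slc26a1, Slc2a7, Slc35e3, Slc4a3 and Slc7a9. The highest of the transcript-end peaks was that of Slc35e3, with rank 670 in WT without leucine.

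Within the lists, all solute carrier peaks together sat lower than the whole in WT in complete medium and higher in both KO lists, differences that have no test. Their median position was 63.8%, 50.4%, 45.0% and 47.3% of list length, against 50.6%, 50.4%, 51.7% and 55.3% for all peaks within 50 kb. The higher-scoring 50% of each list held 41.2%, 39.4%, 52.2% and 53.2% of the solute carrier peaks and 47.5%, 42.3%, 47.5% and 49.6% of all peaks within 50 kb. Median distance from the TSS was 15772, 12992, 15761 and 14510 bp, against 14101, 13580, 13378 and 14661 bp.

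Not every window lay in the gene it was named for. Of 165 peaks in a transcript feature, 122 were in the solute carrier gene itself, 42 in another gene and 1 in a transcript without a symbol in the table. Among those in another gene were the Slc26a1 peak in exon 7 of 15 of Idua in KO without leucine, the Slc22a6 peak in exon 9 of 11 of Slc22a8, the Slc35c2 peak in the 3' UTR of Elmo2 and the Slc26a10 peak in exon 11 of 16 of Arhgef25, these 3 in WT without leucine. Against the starts in the RefSeq table, 180 of the 182 peaks whose gene has a start there kept the same gene as the nearest coding start. When non-coding starts were allowed, 137 of 182 did, and 9 of 27 at the shared sites.

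The number of solute carrier genes per list followed the length of the lists. There were 33 and 73 genes in the WT lists and 41 and 48 in the KO lists. Their peaks made 2.19%, 2.27%, 2.28% and 2.16% of all peaks within 50 kb in these lists, with exact 95% intervals that overlapped in all 4. When each list was limited to its 2336 highest-scoring peaks the genes numbered 33, 30, 34 and 29. The larger count in WT without leucine was therefore not seen at equal list length.

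Set against the 375 protein-coding genes of the RefSeq table with such a symbol, the 6 left-out genes included, a peak within 50 kb was found for 9.87% (7.04 to 13.3) and 20.3% (16.3 to 24.7) in the WT lists and for 10.9% (7.96 to 14.5) and 13.1% (9.83 to 16.9) in the KO lists. Of all 21900 protein-coding genes the shares were 5.61%, 13.5%, 7.13% and 9.81%. In any list it was 35.7% (30.9 to 40.8) against 25.6%, a ratio of 1.4. Among genes named by a peak at any distance, 88.2% of solute carrier genes and 81.1% of all genes had one within 50 kb, a ratio of 1.09. Solute carrier genes were longer in the table, with a median span of 28652 bp against 17146 bp for all protein-coding genes, and the part of length in this difference was not tested. Within 10 kb of the TSS, 4.0% (2.26 to 6.51), 10.4% (7.5 to 13.9), 4.27% (2.46 to 6.84) and 6.13% (3.93 to 9.06) of the same 375 genes had a peak, against 2.28%, 6.17%, 3.03% and 4.03% of all protein-coding genes. Without the 6 left-out genes the group had 12, 36, 16 and 22 genes there.

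**Figure D4:**
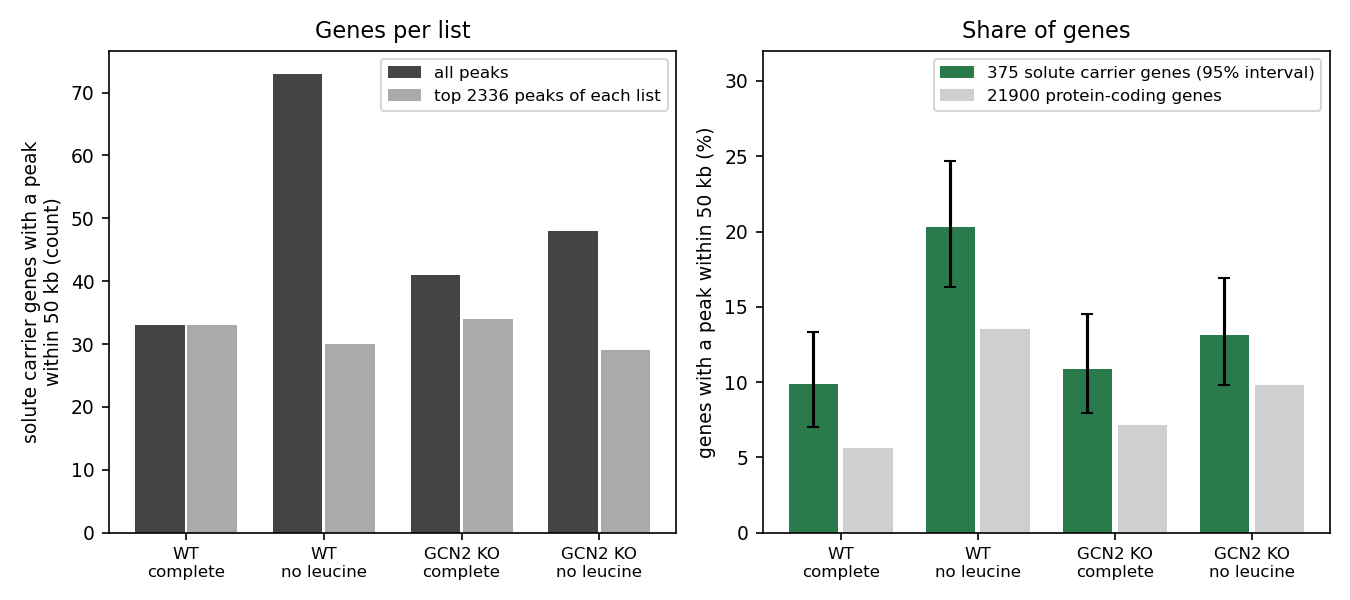
Left, number of solute carrier genes with a peak within 50 kb in each list, for all peaks and for the 2336 highest-scoring peaks; right, percent of the 375 solute carrier genes with such a peak (bars are exact 95% binomial intervals, counting error only) beside all 21900 protein-coding genes. The counts of 33, 73, 41 and 48 become 33, 30, 34 and 29 at equal length.

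The WT lists with and without leucine were compared first. Of 92 genes in either WT list, 19 (20.7%) were in complete medium alone, 59 (64.1%) without leucine alone and 14 (15.2%) in both. The same shares over all 4234 genes were 19.0%, 66.2% and 14.9%. Genes in complete medium alone included Slc14a2, Slc12a2 and Slc35b1. Those without leucine alone included Slc20a1, the urate transporter gene Slc2a9, Slc12a7, Slc10a4 and Slc17a9.

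In KO cells, 22 of 70 genes (31.4%) were in complete medium alone, 29 (41.4%) without leucine alone and 19 (27.1%) in both. Over all 3698 genes these shares were 32.3%, 50.9% and 16.8%. The genes in both KO lists included the shared sites of Slc16a9, Slc44a3, Slc25a33, Slc22a12, Slc2a1, Slc20a1 and Slc14a2, whereas the other 12 were in both through separate sites. These were Slc6a2, Slc6a11, Slc6a12, Slc10a4, Slc12a7, Slc14a1, Slc17a9, Slc22a3, Slc29a4, Slc35b1, Slc35f3 and Slc45a4. Slc28a1, Slc6a6, Slc2a9 and both subunits Slc51a and Slc51b were without leucine alone.

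KO was then compared with WT within each medium. In complete medium, 22 of 63 genes (34.9%) were in WT alone, 30 (47.6%) in KO alone and 11 (17.5%) in both, beside 36.3%, 49.7% and 14.1% of all 2846 genes. Slc6a6, Slc6a7 and Slc28a1 were in WT alone, and Slc20a1, Slc12a7 and Slc6a12 in KO alone. Without leucine, 49 of 97 genes (50.5%) were in WT alone, 24 (24.7%) in KO alone and 24 (24.7%) in both, beside 50.3%, 31.8% and 17.9% of all 5034 genes. Slc13a4, Slc22a4, Slc25a32, Slc35c1 and Slc45a1 were in WT alone there, while Slc14a2, Slc35b1, Slc51a and Slc51b were in KO alone. The comparisons share libraries with each other and are not independent.

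The genes covered 40 of the 51 families in the gene table. Substrate classes were set by family number, so all of family 6 was counted with the transporters of neurotransmitters. That family includes the taurine, proline and glycine transporter genes Slc6a6, Slc6a7 and Slc6a9, and Slc6a6 and Slc6a7 had shared sites. By this filing, amino acid and peptide carriers had 15 genes of 48 (31.2%) in the table, 20 peaks and no shared site. Of 8 amino acid carriers that take part in the amino acid response, 5 had a peak within 50 kb, the highest at 30.1% of list length. The single lists held 1, 1, 3 and 1 of the 8. Such a peak in any list was found for 25.6% of protein-coding genes and 35.7% of the 375 solute carrier genes. The 8 were not tested against these shares. Slc1a4, a carrier of alanine, serine and cysteine, had an intron peak in WT without leucine (rank 1524 of 5980). Slc1a5, the glutamine carrier ASCT2 (rank 2540), Slc38a2, the neutral amino acid carrier SNAT2 (rank 2781), and Slc6a9, the glycine transporter (rank 1770), had peaks in KO in complete medium, of 3141. Slc7a1, the cationic amino acid carrier, had different sites in WT in complete medium (rank 1592 of 2336) and in KO without leucine (rank 4029 of 4600).

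A list of 11 carriers with leucine or the other branched-chain amino acids among their substrates was drawn from general knowledge and need not be complete. Of these 11, Slc25a44 had a peak and the other 10 did not. Over all protein-coding genes 25.6% had a peak in any list, and the 11 were not tested against that share. Slc25a44, the mitochondrial branched-chain amino acid carrier, had its peak in intron 1 of 3, 3385 bp past the TSS, in KO without leucine (rank 1222 of 4600). Slc7a5, the main leucine importer, Slc7a8 and Slc43a2 were among those with no peak within 50 kb in any list.

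The other amino acid and peptide genes were Slc1a1, Slc3a1, Slc7a9, Slc7a10, Slc7a14, Slc7a15, Slc15a1, Slc36a4, Slc38a4, Slc38a7 and Slc38a8. The 20 peaks of the class had a median position of 73.9%, the lowest-scoring of the classes, and 5 were in the higher-scoring 50% of a list.

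Sugar carriers had 13 of 34 genes with 33 peaks, led by the Slc2a1 site. The class held the hexose and polyol carriers Slc2a1, Slc2a5, Slc2a7, Slc2a8, Slc2a9 and Slc2a13, the sodium-coupled carriers Slc5a3, Slc5a4a, Slc5a6, Slc5a10 and Slc5a11, and Slc45a1 and Slc45a4. Slc5a3 carries myo-inositol and Slc5a6 biotin and pantothenate. Of these genes 6 were in 2 or more lists, but Slc2a1 alone had a shared site. Of all 130 genes 30.0% were in 2 or more lists, and of all genes named within 50 kb 28.2%. The sugar class was not tested against these shares.

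Transporters of neurotransmitters and vesicle cargo had 14 of 35 genes with 29 peaks, and 8 of the 14 were in 2 or more lists. Of all 130 genes 30.0% were, and of all genes named within 50 kb 28.2%, and the class was not tested against these shares. Slc6a6, Slc6a7 and Slc6a12 had a shared site. Slc6a11 (GABA), Slc6a2 (noradrenaline), Slc6a3 (dopamine), Slc6a9 (glycine) and Slc6a17 had none, nor did the vesicular and phosphate carriers Slc17a2, Slc17a7, Slc17a8, Slc17a9 and Slc18b1. Several of these genes are best known from neurons.

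Organic ion and drug carriers had 17 genes, 16 of them among the 36 protein-coding ones (44.4%), and the other was the pseudogene Slc22a13b-ps. Family 22 gave 12, among them Slc22a3, Slc22a4, Slc22a6, Slc22a7, Slc22a8, Slc22a12, Slc22a15, Slc22a16, Slc22a17, Slc22a29 and the pseudogene. Several of them transport drugs in liver and kidney. Other families gave Slc10a4, Slc47a1, Slc47a2, Slc51a and Slc51b, and Slc22a12 alone had a shared site.

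Mitochondrial carriers had 14 of 47 genes, and the class was not tested against the shares given next. Of these, Slc25a33 alone was in 2 or more lists, beside 30.0% of all 130 genes and 28.2% of all genes named within 50 kb. The others were Slc25a12 and Slc25a13, which exchange aspartate for glutamate, Slc25a20, the acylcarnitine carrier, Slc25a51, the carrier of NAD, and Slc25a16, Slc25a18, Slc25a23, Slc25a31, Slc25a32, Slc25a44, Slc25a46, Slc25a47 and Slc25a48. The nucleotide sugar class had 12 of 28, all of family 35, with 9 of them in WT without leucine. That list, the longest, named 73 of all 130 genes, and the class was not tested against this share. The 12 were Slc35a3, Slc35b1, Slc35b3, Slc35b4, Slc35c1, Slc35c2, Slc35e2, Slc35e3, Slc35f3, Slc35f6, Slc35g1 and Slc35g2, and none had a shared site.

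Inorganic ion and pH carriers had 18 of 54 genes, the most of any class, and no shared site. They were Slc4a3, Slc4a5 and Slc4a8 (bicarbonate), Slc8a2, Slc8a3, Slc8b1 and Slc24a4 (calcium exchange), Slc9a2, Slc9a4 and Slc9a8 (proton exchange), Slc12a1, Slc12a2 and Slc12a7 (chloride cotransport) and Slc26a1, Slc26a4, Slc26a9 and Slc26a10 (anion exchange). The class also holds Slc4a1ap, whose product is an adaptor and not a carrier. Metal carriers had 8 of 32 genes, with 5, 3, 1 and 0 in the lists. Of all protein-coding genes 5.61%, 13.5%, 7.13% and 9.81% had a peak in these lists, and the class was not tested against these shares. The 8 were the zinc carriers Slc30a1, Slc30a3, Slc30a9, Slc39a2, Slc39a5 and Slc39a11 and the magnesium carriers Slc41a1 and Slc41a2.

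Among smaller classes, carboxylate and sulfate carriers had 5 of 19 genes (Slc13a4, Slc16a1, Slc16a6, Slc16a9 and Slc16a14) and phosphate carriers 3 of 5 (Slc20a1, Slc20a2 and Slc34a1). Nucleoside carriers had 3 of 8 (Slc28a1, Slc29a3 and Slc29a4). Vitamin carriers had 4 of 12 (Slc19a1 for folate, Slc23a2 for ascorbate, Slc52a3 for riboflavin, and Slc46a2), and lipid and choline carriers 2 of 11 (Slc27a6 and Slc44a3). Both urea transporter genes, Slc14a1 and Slc14a2, which are neighbours, had shared sites, and the class has no others. In any list 25.6% of protein-coding genes had a peak, and no class was tested against that share.

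**Figure D5:**
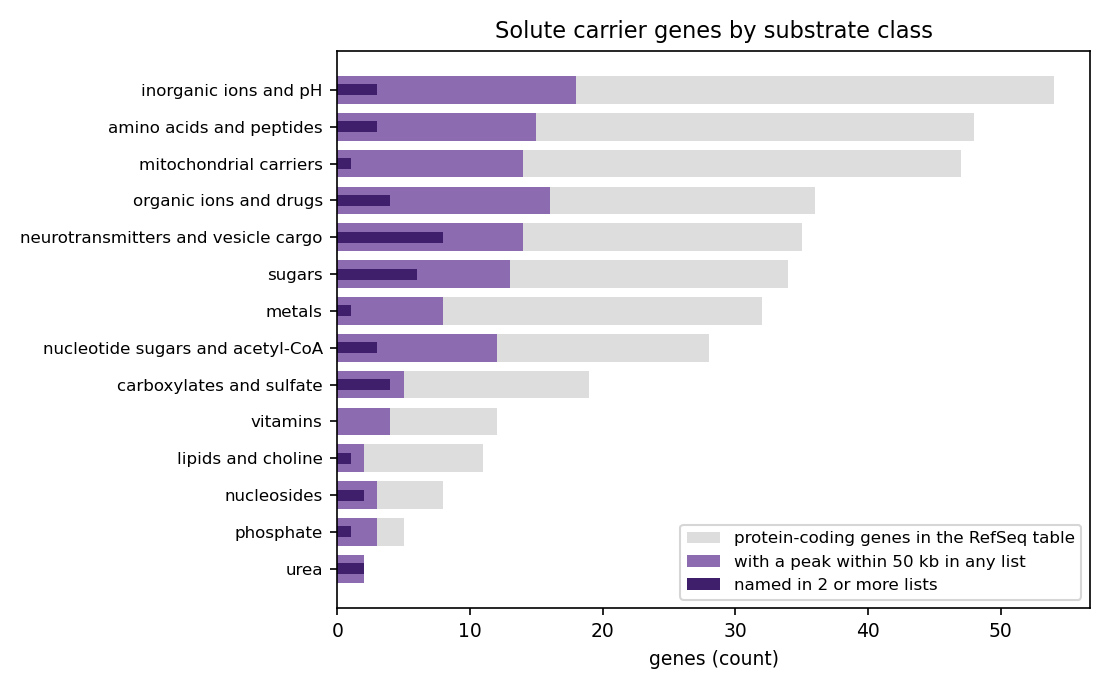
Number of solute carrier genes by substrate class: protein-coding genes in the RefSeq table (grey), those with a peak within 50 kb in any list (light purple) and those named in 2 or more lists (dark purple). The class of inorganic ions and pH has 18 of 54 genes and neurotransmitters and vesicle cargo has 8 genes in 2 or more lists.

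Related carriers outside the rule were counted the same way. For all protein-coding genes the share with a peak within 50 kb in any list was 25.6%. The groups below were not tested against it. Of 15 organic anion transporting polypeptide genes, named Slco, 6 had a peak within 50 kb, and Slco4a1 had an overlapping site in both KO lists with ranks 1837 and 1102. Of 28 solute carriers under other symbols, 7 had a peak, among them Xpr1, the phosphate exporter, in both KO lists at different sites. Of the 6 genes left out, 5 had a peak within 50 kb, and the heme carrier gene Slc48a1 ranked 8, 8, 29 and 40. Its ranks are of the same order as those of Slc16a9.

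At the limit of 50 kb, the last peak inside was that of Slc29a4 at 49944 bp in WT without leucine (rank 2557), preceded by Slc5a3 at -49617 bp in WT in complete medium (rank 1592). The first outside were those of Slc22a23, between 53879 and 53914 bp upstream, in 3 lists.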

How the data were processed

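NRF2 ChIP-seq peak lists from 4 libraries were used, and the 2 input libraries were not analysed here. Reads were single, 50 bp, per the labels' protocols. Per the submitters' processing notes MACS2 2.1.0, HOMER 4.7 and BWA 0.7.12 were used with the mm10 build, their settings being not given in the sources used here. Windows of 300 bp were called for each library, with the genotype's own complete-medium input as control, and annotated to the nearest TSS, per the file headers. The authors deposited a score for each peak, whole and at least 13, without naming its origin, so it was used only to rank peaks within a list. CpG and GC content were deposited by the authors as a fraction and are not reported here.

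Windows overlapping by 1 bp or more were merged into 14390 regions. The step was run on simulated sites set far apart, so the joining of neighbouring windows was not tested. Gene spans and starts came from RefSeq tables of GRCm38.p6, matched by gene ID. The start table was incomplete, and 54 peaks belong to genes without an entry. There were 2 genes with an Slc symbol in the table but another name in the files, which were not counted. Genes were named when they had overlapping peaks in 2 or more lists, peaks in 3 or more lists, the 5 best ranks of a list, a promoter, exon, UTR or transcript-end peak, a peak within 1 kb, 3 or more sites, or a place in the leucine and amino acid response lists, and the other members are named by class, except some that are not reported here. The members and lists were chosen with earlier results of these data known. Shares have exact Clopper-Pearson 95% intervals. Python 3.11.15, pandas 2.3.3 and scipy 1.17.1 were used. Alternatives varied the distance limit, list length, repeats, overlap and background.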

Additional observations from a re-analysis of the deposited data

How the results depend on the processing

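Sequencing depth is unknown, each condition has 1 library and a missing peak shows only that it fell under the authors' threshold. Of 38 alternative values, 22 stayed within 1.5 times the main count, or within its interval for shares, and 16 did not. For WT (complete medium, then no leucine) and KO (likewise), the genes numbered 12, 36, 16 and 22 within 10 kb, 3, 8, 2 and 2 within 1 kb, and 14, 40, 24 and 28 among the first 50% of peaks of each list sorted by score. That cut divides peaks of equal score, whereas elsewhere a peak is placed by its rank averaged over equal scores, so the counts differ. Fewer peaks enter each of these by construction. At equal list lengths WT without leucine fell to 30 genes and KO without leucine to 29. Genes in 2 or more lists numbered 39, with 12 when windows had to overlap and 19 at equal lengths. Shared sites numbered 12 with a reciprocal overlap of 50%, 15 when windows were widened by 500 bp and 11 in the same first 50%. Against genes named at any distance as background, the ratio of shares was 1.09, beside 1.4 in the main setting. Of all genes so named 81.1% had a peak within 50 kb, so this ratio could not reach 1.4 and measures something else. The comparison with the nearest coding start of the RefSeq table was added after the data were seen and gave 33, 72, 41 and 48 genes. No paired analysis was possible because each condition has 1 library and no result comes from a test.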

Other observations

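A recurrent site named for a solute carrier lay far beyond 50 kb. All 4 lists held a peak 639052 to 639091 bp upstream of Slc8a1, the gene of a sodium/calcium exchanger, on chromosome 17 (82377292 to 82377592 in WT in complete medium). It ranked 170 and 101 in the WT lists (complete medium and no leucine) and 20 and 65 in the KO lists, in a window annotated to an LTR repeat. At this distance the name gives only the nearest TSS.

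The site 53912 bp upstream of Slc22a23, an organic ion transporter family gene, ranked 314 and 167 in the WT lists and 227 in the KO leucine-free list, and had no peak in KO in complete medium. In all, 18 solute carrier genes were named only by peaks beyond 50 kb, 6 of them in 2 or more lists. Among these 6, Slc22a23 and Slc8a1 had a shared site, whereas Slc10a2, Slc15a4, Slc16a7 and Slc4a4 had separate sites. The share in 2 or more lists over all genes named only beyond 50 kb was not counted.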
